A study of Mus musculus with 24 samples.

Results

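De novo lipogenesis, the making of fatty acids from sugar, was followed through 10 genes in mouse liver: the regulators Srebf1 and Mlxipl, the suppliers of carbon and reducing power Pklr, Acly and Me1, the fatty acid synthesis genes Acaca, Fasn and Thrsp, and the elongase and desaturase Elovl6 and Scd1. They were chosen by gene symbol for their role in the pathway and make up 10 of the 14293 rows of the deposited table. All 10 passed the filter on low values, as did 11562 rows in all. The design text calls the tissue NASH liver, that is liver with nonalcoholic steatohepatitis, in which fat is stored together with inflammation and fibrosis. The labels place 8 samples in each of 3 groups, which were given vutiglabridin, semaglutide or vehicle. Vutiglabridin is presented in the series title as an agonist of the enzyme paraoxonase-2, and semaglutide is a drug that acts on the GLP-1 receptor. There is no label for strain, NASH model, sex, age, diet, dose or duration, and none says that the samples are separate animals, so p-values reflect only the spread among these samples, part of which may be technical. The word liver stands for a sample, since the labels do not tell animals apart. Polyadenylated RNA was sequenced from the livers, and the values are FPKM, that is fragments per transcript length and per mapped fragment of a library, which allows levels to be compared between genes.

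In the liver, glucose is broken down to pyruvate, pyruvate becomes citrate in mitochondria, and citrate that reaches the cytosol is split to acetyl-CoA, from which fatty acids are built with NADPH. Insulin raises the transcription and processing of SREBP-1c, a product of Srebf1, and sugar metabolites activate ChREBP, the product of Mlxipl, which binds DNA together with its partner Mlx. Both factors turn on many of the same enzymes, and the pathway is known to run high in fatty liver.

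Mlxipl (chr5:135089890-135138382, plus strand, GRCm38) was the regulator whose RNA differed between groups, and it has a pair of transcription starts 17001 bp apart in RefSeq. The upstream start is that of the short ChREBP-beta form, the downstream start that of the long ChREBP-alpha form, and the gene's FPKM adds them up. Fasn (chr11:120805846-120824547, minus strand) encodes the synthase of the pathway and is 1 of 5 genes that varied closely together from liver to liver. The 250 bases before these 3 starts are shown, from RefSeq on GRCm38.p6 and read 5′ to 3′ along the gene: the E-box is the motif of which ChREBP and Mlx bind a pair, the sterol response element is bound by SREBPs, and the CCAAT box is bound by NF-Y, a factor that works together with SREBPs. Capitals mark CACGTG (an E-box) in the upstream Mlxipl window, TCACNCCAC (the form of the sterol response element searched) in the downstream window, and CCAAT on either strand in the Fasn window.
Mlxipl upstream start, chr5:135089640-135089889, plus strand: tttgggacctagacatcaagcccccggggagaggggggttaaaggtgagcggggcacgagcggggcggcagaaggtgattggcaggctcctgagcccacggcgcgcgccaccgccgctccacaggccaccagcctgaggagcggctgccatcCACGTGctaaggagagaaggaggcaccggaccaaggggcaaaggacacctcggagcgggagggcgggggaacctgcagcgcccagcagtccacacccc
Mlxipl downstream start, chr5:135106641-135106890, plus strand: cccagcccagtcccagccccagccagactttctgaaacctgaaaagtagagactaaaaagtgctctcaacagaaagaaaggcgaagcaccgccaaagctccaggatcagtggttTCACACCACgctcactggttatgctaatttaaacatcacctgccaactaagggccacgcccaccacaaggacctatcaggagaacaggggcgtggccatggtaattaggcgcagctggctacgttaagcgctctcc
Fasn, chr11:120824548-120824797, minus strand: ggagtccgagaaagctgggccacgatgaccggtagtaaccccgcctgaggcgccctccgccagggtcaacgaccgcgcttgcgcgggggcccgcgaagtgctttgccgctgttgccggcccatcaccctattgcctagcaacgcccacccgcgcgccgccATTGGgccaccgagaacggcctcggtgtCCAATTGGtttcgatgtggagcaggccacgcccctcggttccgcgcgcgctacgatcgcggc

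RefSeq entries were found for 9 of the 10 genes, 14 entries in all, and both strands of each were searched. CACGTG stood in 1 of these 14 entries, at position -98 counted from the upstream Mlxipl start, and in 6.02% of all 32851 promoter windows of the same length. TCACNCCAC stood in 1 of the 14, at position -136 of the downstream Mlxipl start, and in 1.05% of all windows. CCAAT stood in 7 of the 14 entries, which belong to 6 genes, and in 33.8% of all windows. In the Fasn window it stood 3 times, at -90, -62 and -59, with the last 2 overlapping on opposite strands. The upstream Mlxipl window also held CCAAT, at -173 on the reverse strand. These matches describe the letters in these windows and say nothing of binding.

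The samples read as liver. Alb, the main plasma protein of hepatocytes, lay between 20097 and 34203 FPKM in all 24 samples, and the 8 hepatocyte markers together summed to 33410 to 47900 FPKM in vutiglabridin livers, 34040 to 45940 in semaglutide livers and 30280 to 37960 in vehicle livers. Low values lie on steps that a single fragment makes, and these implied a depth, in M (mega) fragments, of 5.97 to 15.3 in vutiglabridin, 9.37 to 12.4 in semaglutide and 12.0 to 19.8 in vehicle libraries. Vutiglabridin replicate 7 was the shallowest library and listed 1413 genes at 0. FPKM totals averaged 368614 ± 14580 in vutiglabridin, 343428 ± 14751 in semaglutide and 330352 ± 14299 in vehicle libraries (SD, n = 8 each). All 14293 values of each semaglutide column were written with a trailing space and none of the other 16 columns were, so that a difference in how those libraries were handled or processed cannot be told apart from the drug. No 2 samples held identical values.

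By level the 10 genes spread over nearly 3 orders of magnitude, and their order was close to the same in the 3 groups. Scd1, whose enzyme makes monounsaturated fatty acids, stood at rank 5 of the whole table in each group, and it made up 72.5% to 89.4% of the summed FPKM of the 10 genes in vutiglabridin livers, 77.7% to 91.9% in semaglutide livers and 78.9% to 87.0% in vehicle livers. The 10 genes together held 1.28% to 3.44% of all FPKM in vutiglabridin livers (median 1.88%), 1.29% to 3.21% in semaglutide livers (median 2.13%) and 1.40% to 2.46% in vehicle livers (median 2.02%), and these ranges overlapped. Thrsp came after Scd1, then Fasn and Pklr, Srebf1, Acly, Me1 and Mlxipl, Elovl6 and, last in every group, Acaca at 9.24, 10.7 and 9.24 FPKM in vutiglabridin, semaglutide and vehicle livers. Fasn stood above Pklr in both drug groups and below it in vehicle livers, and Me1 stood above Mlxipl in both drug groups and below it in vehicle livers. The ranges of the genes in each of these pairs overlapped in all 3 groups.

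**Figure D1:**
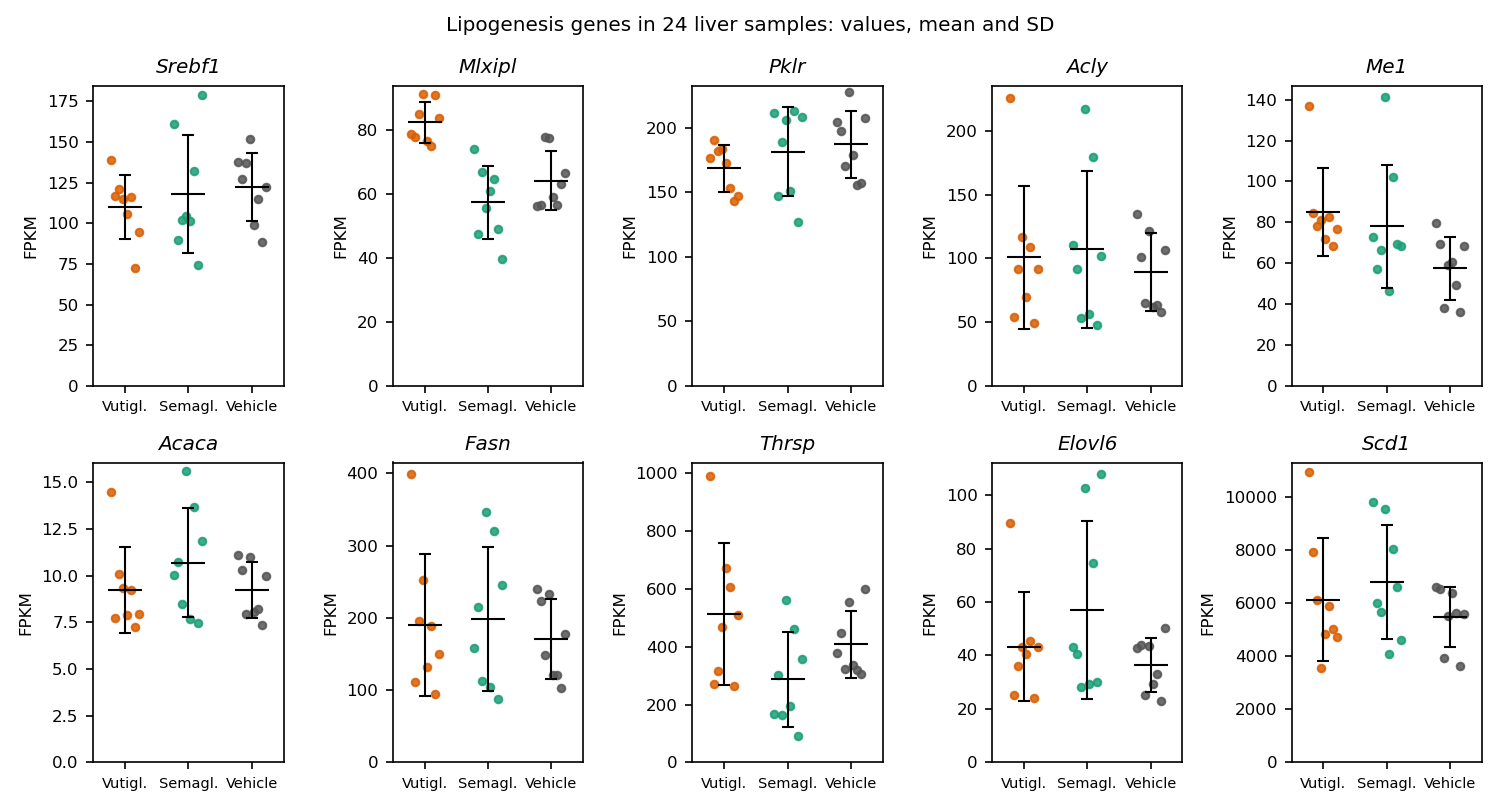
FPKM of each of the 10 lipogenesis genes in the 24 liver samples (vertical axes start at 0, 1 panel per gene, points are samples, bars are mean and SD with n = 8 per group). The Mlxipl points of vutiglabridin livers, at 74.98 to 91.21 FPKM, all stand above those of semaglutide livers, at 39.80 to 74.15, while the Fasn groups overlap, with 2 vutiglabridin and 3 semaglutide points above every vehicle point.

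Of the regulators, Mlxipl RNA was higher in vutiglabridin livers than in both other groups. It ran from 74.98 to 91.21 FPKM with a median of 81.3 in vutiglabridin livers, from 39.80 to 74.15 with a median of 58.3 in semaglutide livers, and from 56.31 to 77.82 with a median of 61.2 in vehicle livers. The vutiglabridin and semaglutide ranges did not overlap, and 6 of 8 vutiglabridin values lay above every vehicle value. Against vehicle, Mlxipl rose 1.29-fold, by 0.36 ± 0.10 on the log2 scale (SE, 95% interval 0.15 to 0.57, limma adjusted p = 0.0161), with all 8 livers above the vehicle mean. Against semaglutide it was 1.45-fold higher (log2 0.54 ± 0.10, interval 0.33 to 0.74, limma adjusted p = 3.88e-04). Semaglutide livers differed from vehicle by -0.17 (interval -0.38 to 0.03, limma adjusted p = 0.214). Without the shallow vutiglabridin replicate 7 the differences of vutiglabridin were 0.34 from vehicle and 0.52 from semaglutide, and both passed.

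The Mlxipl call against vehicle depended on how libraries were scaled. With FPKM rescaled to the same total in every library (TPM) the difference was 0.21 (limma adjusted p = 0.10), on a scale where the median of all genes moved to -0.13, and with quantile normalization it was 0.24 (limma adjusted p = 0.113). The call against semaglutide passed under all alternatives run, at 0.42 to 0.59. Hepatocyte markers also differed between groups. Against vehicle 4 of 8 rose in vutiglabridin livers and none fell, where 6.53% of all tested genes rose. In semaglutide livers 6 of 8 rose and none fell, where 14.3% of all tested genes rose, while Mlxipl did not pass there. Between vutiglabridin and semaglutide livers, where Mlxipl differed most, none of the 8 markers was higher and 1 was lower in vutiglabridin livers. Their part in the Mlxipl result was not tested. In bulk RNA fewer cells of a type and less RNA per cell cannot be told apart.

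Srebf1 RNA overlapped between all groups. Its level was 72.84 to 139.27 FPKM with a median of 116 in vutiglabridin livers, 74.59 to 179.17 with a median of 103 in semaglutide livers and 88.57 to 151.90 with a median of 125 in vehicle livers. The log2 differences were -0.15 for vutiglabridin against vehicle (interval -0.46 to 0.16, limma adjusted p = 0.560), -0.09 for semaglutide against vehicle (interval -0.40 to 0.23, adjusted p = 0.718) and -0.06 for vutiglabridin against semaglutide (interval -0.38 to 0.25, adjusted p = 0.797). The gene's FPKM sums the SREBP-1a and SREBP-1c forms and does not show how much of the protein is processed.

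Among the genes that supply carbon and reducing power, Me1 passed in vutiglabridin livers, while Pklr and Acly passed in no comparison. Me1, the cytosolic malic enzyme that makes NADPH, ran from 68.47 to 137.06 FPKM with a median of 79.6 in vutiglabridin livers, from 46.58 to 141.42 with a median of 68.9 in semaglutide livers and from 35.98 to 79.55 with a median of 59.8 in vehicle livers. All 8 vutiglabridin values lay above the vehicle mean and 4 above every vehicle value. The rise was 1.49-fold, or 0.57 ± 0.19 on the log2 scale (SE, interval 0.19 to 0.96, limma adjusted p = 0.0382). Semaglutide livers were 0.40 ± 0.19 above vehicle (interval 0.02 to 0.79), which did not pass (limma adjusted p = 0.111). It passed without semaglutide replicate 5, at 0.50 (limma adjusted p = 0.0446). That replicate holds the group's lowest Me1 value, so leaving it out raises the difference by construction. Me1 did not pass in that comparison in the other 23 of 24 fits with a sample left out, nor in the 13 other settings. Vutiglabridin and semaglutide livers differed by 0.17 (interval -0.22 to 0.55, adjusted p = 0.543).

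The Me1 call in vutiglabridin livers was lost when any of 6 libraries was left out. The limma adjusted p without vutiglabridin replicates 1, 2 and 8 was 0.0899, 0.0593 and 0.0511, and without vehicle replicates 3, 6 and 7 it was 0.0817, 0.0638 and 0.0902, with log2 differences of 0.47 to 0.59. It was also lost under TPM scaling, at 0.42 (adjusted p = 0.0987), and under quantile normalization, at 0.44 (adjusted p = 0.126).

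Pklr, the pyruvate kinase of liver that ends glycolysis, had 143 to 191 FPKM (median 174) in vutiglabridin livers, 127 to 213 (median 197) in semaglutide livers and 156 to 227 (median 188) in vehicle livers. The groups overlapped, and the log2 differences from vehicle were -0.15 for vutiglabridin (interval -0.37 to 0.07, limma adjusted p = 0.396) and -0.06 for semaglutide (interval -0.28 to 0.16, adjusted p = 0.732). Under TPM scaling Pklr passed as lower in vutiglabridin than in vehicle livers, at -0.30 (limma adjusted p = 0.0341). On that scale the median of all genes moved to -0.13 and 2731 genes passed as lower. Acly, the lyase that splits citrate to acetyl-CoA, spread from 49.3 to 226 FPKM (median 91.8) in vutiglabridin livers, from 48.0 to 217 (median 96.8) in semaglutide livers and from 58.1 to 135 (median 82.7) in vehicle livers. Its log2 differences from vehicle were 0.10 for vutiglabridin (interval -0.53 to 0.73, adjusted p = 0.871) and 0.14 for semaglutide (interval -0.49 to 0.77, adjusted p = 0.774).

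Among the fatty acid synthesis genes, Fasn and Acaca passed in no comparison, while Thrsp did between the drugs. Fasn, the synthase that builds palmitate, ran from 94.99 to 399 FPKM with a median of 169 in vutiglabridin livers, from 87.8 to 347 with a median of 186 in semaglutide livers and from 103 to 240.4 with a median of 163 in vehicle livers. The 3 ranges overlapped, with 2 vutiglabridin and 3 semaglutide livers above every vehicle liver and 1 of each drug group below, and the highest vutiglabridin liver held 4.2 times the Fasn RNA of the lowest, against 3.95 times in semaglutide and 2.34 times in vehicle livers. The log2 differences were 0.08 ± 0.29 for vutiglabridin against vehicle (interval -0.53 to 0.68, limma adjusted p = 0.890), 0.12 ± 0.29 for semaglutide against vehicle (interval -0.49 to 0.72, adjusted p = 0.810) and -0.04 ± 0.29 between vutiglabridin and semaglutide (interval -0.64 to 0.57, adjusted p = 0.943). Acaca, the carboxylase that makes malonyl-CoA, had intervals of -0.29 to 0.26 for vutiglabridin and -0.11 to 0.45 for semaglutide against vehicle, with neither passing (adjusted p = 0.960 and 0.389).

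Thrsp, the small protein called Spot 14 that responds to thyroid hormone and carbohydrate and promotes lipogenesis, differed between the drugs. It ran from 265 to 992 FPKM with a median of 488 in vutiglabridin livers, from 90.2 to 560.2 with a median of 249 in semaglutide livers and from 304 to 598 with a median of 357 in vehicle livers. In 3 vutiglabridin livers it lay above every semaglutide value, and 6 of 8 lay above the semaglutide mean. The level was 1.88-fold higher in vutiglabridin than in semaglutide livers, by 0.91 ± 0.31 on the log2 scale (SE, interval 0.28 to 1.55, limma adjusted p = 0.0319). Against vehicle neither drug passed, at 0.24 for vutiglabridin (interval -0.40 to 0.87, adjusted p = 0.668) and -0.68 for semaglutide (interval -1.31 to -0.04, adjusted p = 0.105).

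The Thrsp call between the drugs was fragile. The limma adjusted p was 0.0737, 0.0596 and 0.0559 without vutiglabridin replicates 1, 5 and 6 and 0.0597, 0.0656 and 0.0722 without semaglutide replicates 1, 3 and 7, at log2 differences of 0.71 to 0.86. It was also lost under TPM scaling (0.81, adjusted p = 0.0519), quantile normalization (0.73, 0.0838), removal of GC and length trends (0.81, 0.0586), a fit of only these groups (0.91, 0.0664) and the exact Wilcoxon rank sum test (0.79, adjusted p = 0.148). Without semaglutide replicate 4, which holds the group's highest Thrsp value, Thrsp passed as lower in semaglutide than in vehicle livers, at -0.85 (limma adjusted p = 0.0404). Leaving out the highest value of the lower group moves the difference down by construction. Thrsp did not pass in that comparison in the other 23 of 24 fits with a sample left out, nor in the 13 other settings.

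Elovl6, which lengthens palmitate, and Scd1 passed in no comparison. Elovl6 had 24.04 to 89.51 FPKM (median 41.9) in vutiglabridin livers, 28.4 to 107.9 (median 41.9) in semaglutide livers and 23.1 to 50.4 (median 38.1) in vehicle livers. The 3 highest semaglutide livers stood above every vehicle liver, the other 5 within the vehicle range, and the log2 difference was 0.48 (interval -0.09 to 1.06, limma adjusted p = 0.208). For vutiglabridin against vehicle it was 0.19 (interval -0.39 to 0.76, adjusted p = 0.711). Scd1 ran from 3576 to 10931 FPKM (median 5473) in vutiglabridin livers, from 4067 to 9811 (median 6306) in semaglutide livers and from 3615 to 6592 (median 5617) in vehicle livers. Its log2 differences from vehicle were 0.12 for vutiglabridin (interval -0.31 to 0.54, adjusted p = 0.755) and 0.28 for semaglutide (interval -0.14 to 0.70, adjusted p = 0.336). Scd1 lies in a cluster with its close relatives Scd2, Scd3 and Scd4, so its value depends on how shared reads were assigned.

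**Figure D2:**
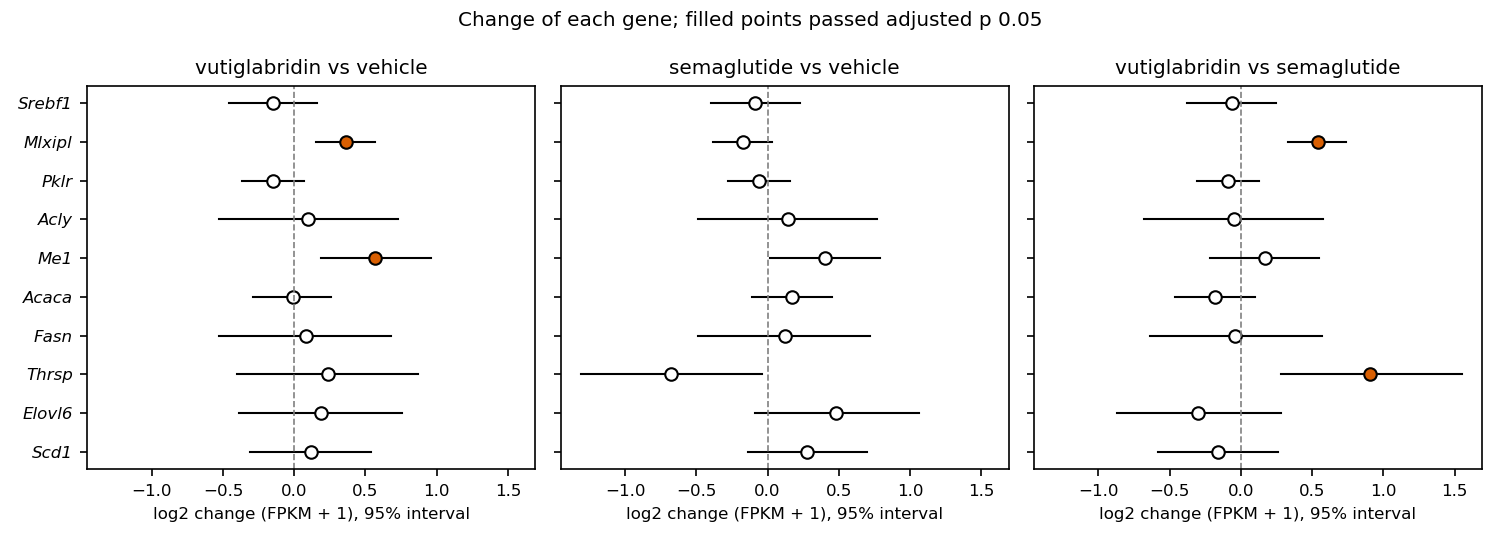
Difference of each gene on the log2(FPKM + 1) scale in the 3 comparisons (horizontal axes, points are limma estimates, bars 95% intervals, filled points passed an adjusted p of 0.05). Mlxipl and Me1 are filled in vutiglabridin against vehicle, Mlxipl and Thrsp in vutiglabridin against semaglutide, and no gene in semaglutide against vehicle.

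Counted over the 10 genes, 2 rose in vutiglabridin against vehicle (Mlxipl and Me1), none fell and 8 did not pass, where 6.53% of all tested genes rose and 8.78% fell. Their median log2 difference was 0.11, against 0.01 over all tested genes. For semaglutide against vehicle limma called none of the 10, where 14.3% of all tested genes rose and 12.7% fell. Of the 10, 2 had an unadjusted p under 0.05 (Me1 and Thrsp, in opposite directions), the exact Wilcoxon test also called 0, and the median difference was 0.13, against -0.01 over all tested genes. Between the drugs 2 of the 10 were higher in vutiglabridin livers (Mlxipl and Thrsp) and none lower, where 11.9% of all tested genes were higher and 12.6% lower. The median difference there was -0.05, against 0.01 over all tested genes. The comparisons with vehicle share the same 8 vehicle samples.

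Within the groups, 5 of the genes varied together from liver to liver. After each group's mean was subtracted from the log2 values, the 10 pairs among Fasn, Acly, Acaca, Elovl6 and Thrsp had Pearson correlations of 0.80 to 0.96 over the 24 samples, with a median of 0.88, and all 10 passed the adjustment over 45 pairs. Over all 66834141 pairs of tested genes the median was 0.00, and 0.0607% reached 0.8. These 5 genes were grouped after their correlations were seen, and the border of the group is not sharp. Me1 had r = 0.82 with Acaca, 0.79 with Acly, 0.74 with Elovl6, 0.72 with Fasn and 0.58 with Thrsp. Of the 8 pairs of Me1 without Mlxipl, 7 passed the adjustment. Fasn and Acly had r = 0.96 and Spearman's rho = 0.94 (within-group permutation p = 1e-05 for each, the smallest that 100000 permutations can give, adjusted over 45 pairs to 6.43e-05 and 5.62e-05), and r was 0.94 without the 2 samples farthest from the median. The Fasn and Acly correlation was 0.98 within vutiglabridin, 0.95 within semaglutide and 0.95 within vehicle livers. Acaca and Fasn had r = 0.96 and rho = 0.96 with the same permutation p-values, r = 0.96 without the 2 farthest samples, and r of 0.94, 0.99 and 0.96 within vutiglabridin, semaglutide and vehicle livers.

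Srebf1 had correlations of 0.28 to 0.77 with the 8 genes other than Mlxipl, of which 5 passed the adjustment, and Mlxipl did not vary with the others detectably. Srebf1 had r = 0.62 and rho = 0.66 with Fasn (permutation p = 0.00386 and 0.00174, adjusted 0.00914 and 0.00461), and r = 0.48 without the 2 farthest samples. Its r with Fasn was 0.76 within vutiglabridin, 0.46 within semaglutide and 0.84 within vehicle livers. Its closest partner among the 10 was Pklr, with r = 0.77 and rho = 0.75 (permutation p = 1.6e-04 and 2.6e-04, adjusted 4.78e-04 and 9e-04) and r = 0.69 without the 2 farthest samples. Mlxipl had correlations of -0.29 to 0.24 with the other 9 genes, and none of the 9 passed the adjustment. With Fasn its r was -0.08 and its rho -0.04 (permutation p = 0.747 and 0.852, adjusted 0.801 and 0.852), and r was 0.03 without the 2 farthest samples. Whether the Srebf1 and Mlxipl correlations with Fasn differ from each other was not tested.

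**Figure D3:**
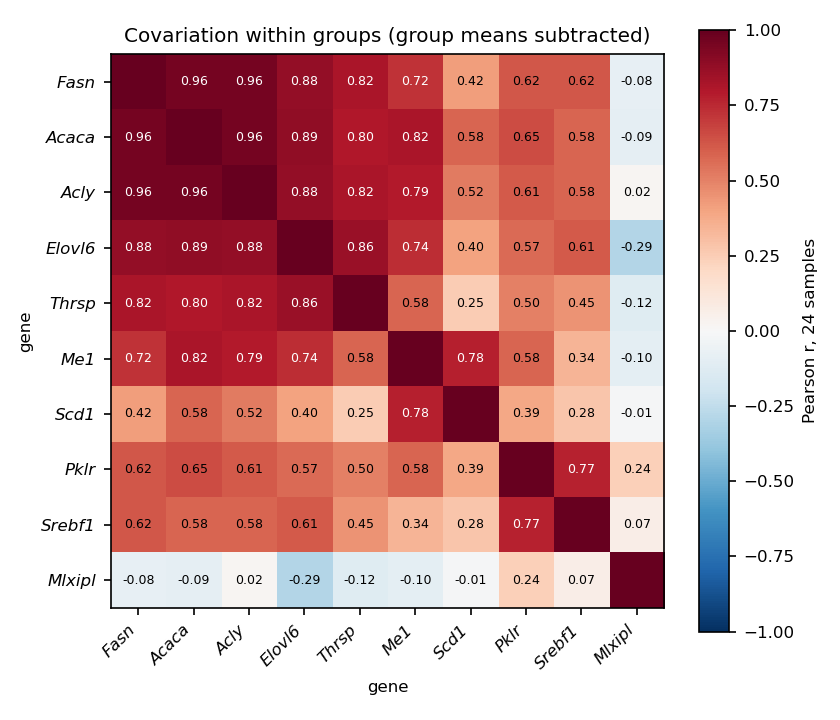
Pearson correlation of each pair of the 10 genes over 24 samples after each group's mean was subtracted from log2(FPKM + 1) (colour scale from -1 to 1). Fasn, Acaca, Acly, Elovl6 and Thrsp form a block of 0.80 to 0.96, and the Mlxipl row lies between -0.29 and 0.24.

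**Figure D4:**
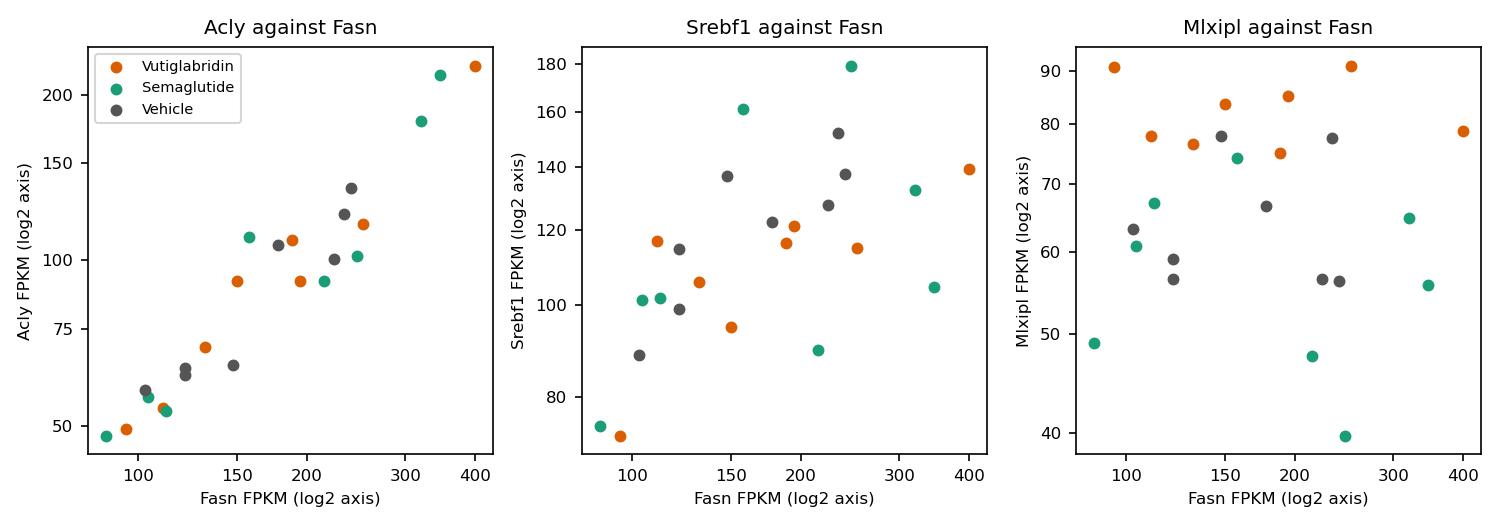
Acly, Srebf1 and Mlxipl FPKM (vertical axes) against Fasn FPKM (horizontal axes) in each liver, all on log2 axes and coloured by group, without subtraction of group means. Acly follows Fasn closely, Srebf1 follows it loosely, and Mlxipl shows no slope while the vutiglabridin points stand higher.

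Scd1, although the most abundant, had the lowest correlation with Fasn of the genes other than Mlxipl. Fasn and Scd1 had r = 0.42 and rho = 0.39 (permutation p = 0.0673 and 0.0815, adjusted 0.0977 and 0.115). The closest partner of Scd1 was Me1, with r = 0.78 and rho = 0.78 (permutation p = 3e-05 and 1e-05, adjusted 1.23e-04 and 5.62e-05), r = 0.69 without the 2 farthest samples, and 0.78, 0.76 and 0.92 within vutiglabridin, semaglutide and vehicle livers. Of all 45 pairs of the 10 genes 29 passed the adjustment, all of them among the 36 pairs without Mlxipl.

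Where a single liver stood in this shared variation was read from the mean of the 10 genes' standardized deviations from their group means. Vutiglabridin replicate 1 stood highest at 1.44 SD, followed by semaglutide replicates 4 and 6 at 1.26 and 1.08, and semaglutide replicate 7 stood lowest at -1.28. Vehicle livers lay between -0.96 and 0.75. Since group means were subtracted, every group has livers above and below its own mean by construction. The deviation of Fasn had r = 0.01 with the implied number of fragments, 0.06 with the FPKM total, 0.11 with hepatocyte markers, 0.19 with adipocyte markers, -0.10 with recruited macrophage markers and 0.41 with stellate cell markers. The stellate value had rho = 0.46 (permutation p = 0.0579 for r and 0.0304 for rho, adjusted over 6 measures 0.348 and 0.182) and r = 0.49 without the 2 farthest samples. None of the 6 measures passed.

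The genes outside the 10 whose deviations were most like the shared variation were Rnf103 (r = 0.87), Slc25a44 (0.86), Gpam (0.86), Slc2a4 (0.84), Cyb5b (0.83) and Slc19a2 (0.83), each over 24 samples. Gpam encodes the acyltransferase that starts glycerolipid synthesis, and its level was 102.6 ± 56.8 FPKM in vutiglabridin, 88.2 ± 37.9 in semaglutide and 88.5 ± 23.5 in vehicle livers. Within vutiglabridin, semaglutide and vehicle livers its r with the shared variation was 0.96, 0.79 and 0.91. The genes most like Srebf1 were Mid1ip1 (r = 0.81), which encodes a relative of Thrsp that promotes polymerization of acetyl-CoA carboxylase, Hdac6 (0.76), Dhx33 (0.72) and Umps (0.71). Those most like Mlxipl were Tsc1 (0.81), Pabpn1 (0.79), Josd2 (0.77) and Leng8 (0.74), but the first 3 of them had r of only 0.18, 0.17 and 0.20 within vutiglabridin livers. All were picked as the highest of the tested genes, so their r is a description.

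Around these 10 genes, 7 lists of pathway genes were counted, 93 genes of which 89 were tested. In vutiglabridin livers 12 of the 89 rose against vehicle and none fell, where 6.53% of all tested genes rose and 8.78% fell. In semaglutide livers 16 of the 89 rose and 11 fell against vehicle, where 14.3% of all tested genes rose and 12.7% fell. Between the drugs 14 of the 89 were higher and 8 lower in vutiglabridin livers, where 11.9% of all tested genes were higher and 12.6% lower. These splits depended on scaling: vutiglabridin against vehicle gave 4 that rose and 16 that fell under TPM scaling and 4 and 6 under quantile normalization. Semaglutide against vehicle gave 8 that rose and 16 that fell under TPM scaling and 17 and 11 under quantile normalization, and between the drugs 9 were higher and 13 lower under TPM scaling and 9 and 10 under quantile normalization. The background shares given above for all tested genes apply only to the counts without rescaling, among them those of each list below. Over all tested genes, TPM scaling gave 233 that rose and 2731 that fell for vutiglabridin against vehicle, and quantile normalization 538 and 848. For semaglutide against vehicle the numbers were 1202 and 2116 under TPM scaling, and 1803 and 1513 under quantile normalization. Between the drugs they were 596 higher and 2264 lower, and 1197 and 1345. Scd3, Scd4 and Mogat2 were under the filter and Olah has no row in the table.

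Genes that control SREBP-1 (18 tested) included 4 that rose in vutiglabridin livers and 5 in semaglutide livers against vehicle, with none falling, and 2 that were higher and 1 lower in vutiglabridin than in semaglutide livers. Of the 4 under vutiglabridin, Lpin1 (log2 0.73, limma adjusted p = 0.0471) lost its call in 16 of the 24 fits with a sample left out and in 5 of 13 other settings, and Akt2 (0.16, adjusted p = 0.0498) in 18 of 24 and 6 of 13. Scap, the escort that carries SREBPs to the Golgi for cleavage, had 17.5 ± 2.09 FPKM in vutiglabridin, 17.4 ± 2.11 in semaglutide and 13.1 ± 1.41 in vehicle livers (SD, n = 8). It rose by 0.38 on the log2 scale under either drug (limma adjusted p = 0.00129 for vutiglabridin and 5.94e-04 for semaglutide). Rxra, the nuclear receptor that pairs with LXR on the Srebf1 promoter, rose by 0.26 (adjusted p = 0.0108) under vutiglabridin and 0.27 (adjusted p = 0.00435) under semaglutide, and its call under vutiglabridin was lost under TPM scaling and quantile normalization. Irs2, the insulin receptor substrate, rose under semaglutide by 0.53 (adjusted p = 0.00297) to 5.93 FPKM, against 3.76 in vehicle livers. Lpin1, a phosphatidate phosphatase that also restrains SREBP activity, was higher in vutiglabridin than in semaglutide livers by 0.96 (adjusted p = 0.00641), at 46.1 ± 19.7 against 22.4 ± 6.21 FPKM.

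Of the ChREBP partners and targets (12 tested), Mlx passed in the same comparisons as Mlxipl. Whether Mlx and Mlxipl varied together from liver to liver was not tested. Mlx, the obligate partner of ChREBP, had 22.1 ± 1.42 FPKM in vutiglabridin, 17.9 ± 1.59 in semaglutide and 18.7 ± 1.35 in vehicle livers. It was higher in vutiglabridin livers by 0.23 against vehicle (limma adjusted p = 0.00705) and by 0.29 against semaglutide (adjusted p = 5e-04). Like Mlxipl it did not pass against vehicle under TPM scaling (0.08, adjusted p = 0.312) or quantile normalization (0.17, adjusted p = 0.0502). Mlx was the 1 gene of the list that rose in vutiglabridin livers against vehicle and none fell, where 6.53% of all tested genes rose. In semaglutide livers 2 rose and 1 fell against vehicle. The median log2 difference of the list from vehicle was -0.15 for vutiglabridin and -0.04 for semaglutide. Between the drugs 2 were higher and 3 lower in vutiglabridin livers. Besides Mlx, Gckr was higher by 0.36 (adjusted p = 9.24e-04). Slc2a2, the liver glucose transporter, and Fgf21, a hormone that ChREBP induces, were among the lower ones, by differences of -0.38 (adjusted p = 0.00124) and -0.80 (adjusted p = 0.0139).

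In the carbon supply list (15 tested), 3 rose and none fell in vutiglabridin livers, 2 rose and 2 fell in semaglutide livers, and 2 were higher and none lower in vutiglabridin than in semaglutide livers. Acss2, which makes acetyl-CoA from acetate, had 31.8 ± 14.99 FPKM in vutiglabridin, 23.3 ± 10.3 in semaglutide and 15.9 ± 3.30 in vehicle livers, and rose 1.84-fold under vutiglabridin (log2 0.88 ± 0.24, limma adjusted p = 0.0136). Under semaglutide Acss2 differed from vehicle by 0.43, which did not pass (adjusted p = 0.191).

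The list for NADPH supply beyond Me1 (7 tested) also holds genes whose enzymes make no NADPH themselves, Mdh1 among them. It had 2 genes that rose in vutiglabridin livers (Mdh1 and Idh1, which both work in the cytosol), 1 that fell in semaglutide livers, and 2 that were higher in vutiglabridin than in semaglutide livers. Mdh1 rose by 0.24 (limma adjusted p = 0.0103) and Idh1 by 0.30 (adjusted p = 0.0258) against vehicle. Neither passed under TPM scaling or quantile normalization, and Idh1 also failed without vehicle replicates 3 or 7 and without vutiglabridin replicates 1 or 8. Taldo1, of the pentose phosphate pathway, was lower in semaglutide livers, at 54.5 ± 5.83 FPKM against 68.2 ± 2.97 in vehicle livers (log2 -0.32, limma adjusted p = 1.42e-04).

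Fatty acid synthesis and chain modification beyond the 10 genes (18 tested) had 2 that rose and none that fell in vutiglabridin livers, 6 that rose and 3 that fell in semaglutide livers, and 2 that were higher and 1 lower in vutiglabridin than in semaglutide livers. Acacb, the carboxylase whose malonyl-CoA restrains fatty acid oxidation and a relative of Acaca, had 37.8 ± 12.1 FPKM in vutiglabridin, 34.7 ± 11.7 in semaglutide and 20.8 ± 6.67 in vehicle livers. It rose 1.78-fold under vutiglabridin (log2 0.83 ± 0.20, limma adjusted p = 0.00631) and 1.62-fold under semaglutide (log2 0.69 ± 0.20, adjusted p = 0.0122), and did so in all alternatives run. Tecr, which completes each round of chain elongation, rose by 0.35 and 0.36 under vutiglabridin and semaglutide (adjusted p = 6.28e-04 and 1.47e-04), with the values of each drug group above those of vehicle livers without overlap. Elovl2, which lengthens polyunsaturated fatty acids, had 297 ± 36.1 FPKM in semaglutide livers against 171 ± 26.6 in vehicle livers, a rise of 0.80 (adjusted p = 2.04e-04) with no overlap.

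Triglyceride assembly (11 tested) held no gene that passed in vutiglabridin livers against vehicle, none that rose and 4 that fell in semaglutide livers, and 4 that were higher and 1 lower in vutiglabridin than in semaglutide livers. Mogat1, a monoacylglycerol acyltransferase that rises in fatty liver, fell to 2.11 ± 0.59 FPKM in semaglutide livers, against 5.25 ± 1.92 in vehicle livers (log2 -0.97, limma adjusted p = 3.21e-05), and was 3.92 ± 0.885 in vutiglabridin livers. Subunits and kinases of AMPK, which inhibits acetyl-CoA carboxylase (8 tested), had none that passed in vutiglabridin livers and 1 that rose in semaglutide livers. That gene was the catalytic subunit Prkaa2, at 12.3 ± 2.18 FPKM in semaglutide against 7.44 ± 1.10 in vehicle livers (log2 0.65, adjusted p = 2.6e-05). Prkaa2 and Prkaa1 were lower in vutiglabridin than in semaglutide livers, by differences of -0.56 and -0.36 (adjusted p = 1.69e-04 and 0.00169).

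Markers of other cells moved between the groups as well. Recruited macrophage markers summed to 22.2 to 42.8 FPKM in vutiglabridin, 20.4 to 39.2 in semaglutide and 37.2 to 86.5 in vehicle livers, and 6 and 5 of the 6 fell under vutiglabridin and semaglutide. Stellate cell markers summed to 17.1 to 46.1, 29.8 to 50.3 and 48.6 to 83.1 FPKM in vutiglabridin, semaglutide and vehicle livers, with 2 and 3 of 6 falling. Cholangiocyte markers summed to 69.6 to 193, 92.3 to 286 and 154 to 339 FPKM in the same order of groups, with 2 and 0 of 5 falling, and Kupffer cell markers to 61.8 to 185, 48.8 to 109.9 and 80.3 to 302, with 0 and 1 of 4 falling. The cholangiocyte sum is mostly Spp1, whose median over all samples was 179.3 FPKM, against 5.95 for Epcam, the next highest. Of 8 adipocyte markers, which matter here because fat cells carry the same enzymes, only Cfd, Cidea and Fabp4 have a row. Their sum was 13.7 to 48.6 FPKM in vutiglabridin, 6.51 to 34.3 in semaglutide and 22.8 to 58.5 in vehicle livers, with 0 and 3 of 3 falling. Over all samples the median was 17.2 FPKM for Cidea, 4.7 for Cfd and 4.9 for Fabp4. The sum thus mostly follows Cidea, and without Adipoq, Lep, Plin1, Ucp1 and Retn it is not a measure of fat cell content. Of 4 pancreatic acinar markers Cela2a has a row, at 0 to 1.07 FPKM, and the 3 skeletal muscle markers have none. The part of these shifts in the values of the 10 genes was not tested.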

How the data were processed

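RNA of 24 mouse liver samples, 8 per group, was measured. The authors deposited 1 table of FPKM values per gene and sample. Per the submitters' processing notes, the tools were HISAT2, StringTie and DESeq2, listed without role or version. The build and any filter on genes were not given in the sources used here. Per the labels' protocols the libraries were stranded and sequenced in pairs; the use of strand in counting was not stated. All 14293 identifiers and symbols matched GENCODE M21 on GRCm38, from which coordinates come. No sample column was left unused (0), and of the 6 rows that share a symbol, Aldoa was taken from the row with the higher mean.

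The analysis used log2(FPKM + 1), a scale on which the fold change of a low gene comes out too small. A gene was tested if 8 or more samples reached 0.5 FPKM, which 11562 did. All 24 samples entered a limma model with the 3 groups as its only terms (limma 3.58.1 under R 4.3.3, two-sided moderated tests, variance trend on the mean). Benjamini-Hochberg adjustment ran over all genes tested within a comparison, with a threshold of 0.05. On simulated data of the same size, 87, 84 and 83 of 100 genes changed by 0.5 on the log2 scale were recovered for vutiglabridin against vehicle, semaglutide against vehicle and vutiglabridin against semaglutide, and 100, 100 and 99 of 100 changed by 1. The changed genes were drawn at random from all tested genes, so this recovery does not describe the lipogenesis genes that varied widely. In vutiglabridin against vehicle the SE was 0.29 for Fasn, 0.31 for Acly and Thrsp and 0.28 for Elovl6. A difference of 0.5 could be missed in these genes. Depth was read, approximately, from the steps of low values in genes with at most 2500 bp of exons.

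The text names all 10 genes, up to 4 genes per pathway list with the lowest p in a comparison, and the 6, 4 and 4 genes most like the shared variation, Srebf1 and Mlxipl. The values of 1 listed gene are not reported here. The genes and lists were chosen with earlier results of these data known. Correlations use group-centred log2 values, and their two-sided p-values come from 100000 permutations within groups, added after the data were seen. The Wilcoxon test ran over all 12870 splits of 8 and 8. Alternatives were other pseudocounts (0.1 and 0.5), other filters (none, or a mean of 1 FPKM), TPM scaling, quantile normalization, median centring, removal of GC and length trends (splines, 5 degrees of freedom), a block for the replicate number, a fit of only the groups compared, the exact Wilcoxon test and each sample left out in turn. Leaving out the rows that share a symbol was added after the data were seen.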

Additional observations from a re-analysis of the deposited data

Results flagged for a closer look

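Of the 30 sets of 8 values (10 genes in 3 groups), 4 had an end value separated from the rest by more than Dixon's 95% critical share of the range. All 4 belong to vutiglabridin replicate 1, and chance marks about 1 in 20 such sets if the values follow a normal distribution. The shares were taken on FPKM without logs, where a high value stands farther from the rest than on the log2 scale used elsewhere. Whether the 4 sets would be marked on the log2 scale was not tested. Acly was 226.06 FPKM there and at most 116.35 in the other 7 vutiglabridin livers. Me1 was 137.06 FPKM, against at most 84.47 in the others. Acaca was 14.46 FPKM, against at most 10.08. Elovl6 was 89.51 FPKM, against at most 45.26. The 4 genes vary together from liver to liver, so these are not independent events. Without this liver Me1 differed from vehicle by 0.47 (limma adjusted p = 0.0899) and Mlxipl by 0.37 (limma adjusted p = 0.0239).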

How the results depend on the processing

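The counts of genes past the threshold, the differences of the 10 genes and those of up to 4 called genes per pathway list were recomputed under 13 other settings (the median difference of the 10 genes under 12), and with each of 24 samples left out. Correlations were recomputed only without the 2 farthest samples and within groups, and FPKM shares and marker counts were not recomputed. Mlxipl was higher in vutiglabridin than in semaglutide livers at 0.42 to 0.59 throughout, with an adjusted p of at most 0.00457. Between vutiglabridin and vehicle, TPM scaling gave 2964 genes past the threshold (233 higher, 2731 lower), against 755 higher and 1015 lower as reported, and 1 of the 10 genes (Pklr, lower) and 20 pathway genes (4 higher, 16 lower). The split also moved for semaglutide against vehicle (1202 higher, 2116 lower) and for vutiglabridin against semaglutide (596 higher, 2264 lower). Quantile normalization left 0 of the 10 in vutiglabridin against vehicle. Between the drugs 1 of the 10 passed under TPM scaling, quantile normalization, removal of GC and length trends, a fit of only those groups and the Wilcoxon test, which also left 13 pathway genes.

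With samples left out in turn, 1 to 2 of the 10 passed for vutiglabridin against vehicle, 0 to 1 for semaglutide against vehicle and 1 to 2 for vutiglabridin against semaglutide. The median difference of the 10 genes ranged from -0.05 to 0.21, from -0.03 to 0.24 and from -0.16 to 0.05 in these comparisons. Several differences that had not passed turned their sign. For vutiglabridin against vehicle these were Acly, Fasn and Scd1 under TPM scaling (-0.06, -0.08 and -0.04) and quantile normalization (-0.03, -0.09 and -0.03), and Acly in the Wilcoxon test (-0.01). For semaglutide against vehicle they were Pklr with GC and length trends removed (0.04, also with the block), Acly in the Wilcoxon test (-0.05) and Scd1 under quantile normalization (-0.01). Between the drugs they were Fasn with GC and length trends removed (0.04, also with the block), and Srebf1 (0.04) and Acly (0.00) in the Wilcoxon test. With samples left out, the ranges that cross 0 were -0.10 to 0.03 for Acaca, -0.09 to 0.22 for Acly, -0.09 to 0.20 for Fasn and -0.01 to 0.22 for Scd1 in vutiglabridin against vehicle. They were -0.03 to 0.28 for Acly, -0.02 to 0.26 for Fasn and -0.09 to 0.01 for Pklr in semaglutide against vehicle, and -0.23 to 0.13 for Acly, -0.21 to 0.10 for Fasn and -0.15 to 0.03 for Srebf1 between the drugs. The cause was not tested, apart from TPM scaling, under which the median of all genes moved by construction.

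The replicate numbers were not taken to pair the samples, since nothing in the labels says that they do. Deviations of samples with the same number correlated at -0.12 to 0.28, -0.25 to 0.25 and -0.20 to 0.29 in vutiglabridin against vehicle, semaglutide against vehicle and vutiglabridin against semaglutide. Of 8 pairs each, 6, 2 and 3 were above 0.1, and 2, 1 and 1 samples correlated best with their own number. In vutiglabridin against vehicle the median was 0.15, against -0.01 for samples with other numbers, so a partial pairing cannot be told apart from none there. With the number as a block, 1723, 3073 and 2748 genes passed in these comparisons, and 2, 0 and 2 of the 10 genes. The block alone gave 15 pathway genes (13 higher, 2 lower) for vutiglabridin against vehicle. The block together with removal of GC and length trends gave 21 pathway genes (19 higher, 2 lower) for vutiglabridin against vehicle, against 12 as reported. For low genes the depth of the shallowest library limits precision.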
